A study of Homo sapiens with 32 samples.

Results

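A set of 7 genes for surface and secreted proteins that are used as markers of embryonal carcinoma, TNFRSF8, CD24, MFGE8, THY1, SPP1, PODXL and PROM1, were followed in 2 human germ cell cancer lines. They were chosen by name with their counts in these libraries already known, above all the difference between the lines, and exact gene symbols found all 7 among 61541 genes, of which 35258 carried a symbol. NTera2 derives from an embryonal carcinoma and TCam-2 from a seminoma. Both lines received D-PBS as vehicle, RANKL, OPG or denosumab for 48 h, and each of the 8 groups held 4 libraries, 32 in all. RANKL activates the receptor RANK, OPG is its soluble decoy receptor, and both were given at 1 µg/ml. Denosumab, an antibody to RANKL, appears in the titles and treatment labels, but the protocol lists RANKL a second time in its place, so its dose is not known here and these libraries rest on their labels. The labels name no transgene or deletion. NTera2 was grown in DMEM and TCam-2 in RPMI 1640, so line and medium cannot be told apart. The 4 libraries of a group came from 4 independent experiments at different passages of 1 line (27, 29, 30 and 31 in NTera2, and 118, 120, 121 and 122 in TCam-2).

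Embryonal carcinoma is the malignant counterpart of early pluripotent embryo cells, and seminoma resembles primordial germ cells. TNFRSF8 encodes CD30, a receptor of the tumour necrosis factor family that signals through TRAF adaptors to NF-kB and is used in pathology to tell embryonal carcinoma from seminoma. CD24 and THY1 are small glycoproteins held in the membrane by a GPI anchor. PODXL is a sialomucin that carries carbohydrate epitopes by which pluripotent cells are recognised, and PROM1 (CD133) is a cholesterol-binding protein of membrane protrusions. MFGE8 and SPP1 (osteopontin) are secreted proteins that bind integrins.

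An NTera2 library held 11385500 to 30499538 counted reads and a TCam-2 library 10585247 to 20257935. Replicates were distinct libraries, since within groups each of 48 pairs exceeded sampling noise (chi-square of 2.57 to 17.5 for each degree of freedom). The labels gave RNA integrity numbers under 8 to TCam-2 RANKL replicate 2 (6.1) and replicate 4 (3.7), and none to NTera2 vehicle replicate 1. The markers of the labelled lines matched their labels. The summed level of 5 embryonal carcinoma markers (SOX2, DNMT3B, GDF3, LEFTY2 and LIN28A) lay between 3208 and 3653 CPM (counts scaled to a common library size) in NTera2 and between 496 and 624 CPM in TCam-2. The summed level of 6 seminoma and primordial germ cell markers (SOX17, TFAP2C, PRDM1, NANOS3, KIT and PDPN) lay between 173 and 189 CPM in NTera2 and between 1928 and 2265 CPM in TCam-2. Of 8 lymphoid and myeloid markers, 0 averaged 1 CPM or more in either line. PTPRC and MS4A1 had no counts in NTera2, and CD3E and MS4A1 none in TCam-2. The 6 fibroblast markers summed to 55.5 to 72.8 CPM in NTera2 and 10.2 to 18.1 CPM in TCam-2, with FAP without counts in both. The 4 endothelial markers summed to 25.4 to 34.3 and 14.2 to 20.3 CPM, and the 6 neural markers to 455 to 549 and 185 to 256 CPM, in the same order. The sums of these last 3 lists were higher in NTera2, like 6 of the 7 members. COL3A1 (0.0331 CPM in NTera2 and 2.32 in TCam-2), LUM (0.0554 and 0.263), VWF (10.7 and 12.9) and CDH5 (0.488 and 3.51) were higher in TCam-2. DCN had 1 read in either line, and the other genes of these lists with reads were higher in NTera2. NES, at a mean of 460 and 207 CPM, made most of the neural sums. The part of these lists in the line differences was not tested.

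By the deposited coordinates (hg38), TNFRSF8 lies on chromosome 1 (12063303 to 12144207, plus strand), CD24 on 6 (106969831 to 106975627, minus), MFGE8 on 15 (88898683 to 88913379, minus) and THY1 on 11 (119415476 to 119424985, minus). SPP1 (87975667 to 87983426, plus) and PROM1 (15963076 to 16084023, minus) both lie on chromosome 4, and PODXL on 7 (131500262 to 131558217, minus). The counts are of whole genes. CD24 and MFGE8 overlap no other gene of the table, and the highest mean level of a gene that overlaps another member was 1.70 CPM in NTera2, for one antisense to THY1. Of the 52-base windows of their GENCODE 29 transcripts, 4.82% in CD24, which has near-identical copies such as CD24P4, 8.65% in THY1, all shared with 1 other gene, 0.858% in PROM1 and 0.458% in MFGE8 also occur in another gene, and 0% in the other 3. The share of windows does not measure the error of a count, so the values of these 4 are uncertain to an extent not known here.

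The promoters of 5 of the 7 genes stood in the RefSeq table (GRCh38.p14), with 11 start sites among them. The 4 below are shown because their genes span the whole range between the lines, from MFGE8, the most NTera2-biased member, to PROM1, the one biased to TCam-2. They were chosen after the values were seen. Each run holds 250 bases before the start site and the 10 bases from it on, 5′ to 3′ on the gene's strand, and capitals mark a match to a searched motif.
TNFRSF8 (chr1:12063053-12063312, plus strand)
TNFRSF8: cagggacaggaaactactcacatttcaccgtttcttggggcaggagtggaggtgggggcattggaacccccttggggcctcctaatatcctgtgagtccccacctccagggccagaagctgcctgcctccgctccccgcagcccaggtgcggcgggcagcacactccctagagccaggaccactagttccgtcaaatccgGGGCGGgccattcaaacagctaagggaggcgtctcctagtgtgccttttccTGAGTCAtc
MFGE8 (chr15:88913370-88913629, minus strand)
MFGE8: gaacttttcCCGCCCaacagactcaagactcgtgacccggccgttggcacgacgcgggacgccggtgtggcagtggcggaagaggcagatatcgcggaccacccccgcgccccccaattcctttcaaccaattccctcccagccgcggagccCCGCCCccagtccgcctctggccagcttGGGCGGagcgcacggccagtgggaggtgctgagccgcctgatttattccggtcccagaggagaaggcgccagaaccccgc
SPP1 (chr4:87975464-87975723, plus strand)
SPP1: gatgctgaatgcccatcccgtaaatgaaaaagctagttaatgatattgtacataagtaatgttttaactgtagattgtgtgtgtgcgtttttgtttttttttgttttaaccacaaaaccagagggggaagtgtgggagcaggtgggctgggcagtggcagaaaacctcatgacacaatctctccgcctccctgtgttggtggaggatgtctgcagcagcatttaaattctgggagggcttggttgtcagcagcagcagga
PROM1 (chr4:16084014-16084273, minus strand)
PROM1: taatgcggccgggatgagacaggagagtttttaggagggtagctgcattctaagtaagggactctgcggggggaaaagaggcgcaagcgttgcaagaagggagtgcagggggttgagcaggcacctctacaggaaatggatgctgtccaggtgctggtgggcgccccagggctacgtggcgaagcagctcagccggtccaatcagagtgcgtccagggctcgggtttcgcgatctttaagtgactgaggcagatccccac

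A set of 6 motifs was searched on both strands in the full windows of 300 bases (250 before and 50 after the start site). They were the TATA box TATAAA, the GC box GGGCGG, the AP-1 motif TGANTCA, the octamer ATGCAAAT, the SOX motif ACAATG and the NF-kB motif. Of 35116 RefSeq promoters, 11.5% held the TATA box, 45.0% the GC box, 7.71% the AP-1 motif, 1.77% the octamer, 10.8% the SOX motif and 0.558% the NF-kB motif. MFGE8 had 3 GC boxes at its first start site. TNFRSF8 had 1 GC box and 1 AP-1 match, which is palindromic and begins 1 base after the start site. The first start site of PROM1 and the one of SPP1 matched none of the 6. Of the other start sites of PROM1, that at 16083729 held 2 GC boxes, that at 16083336 held 1 and that at 16076118 held an AP-1 match. Of the 4 start sites shown, SPP1 had the lowest CpG content, with a ratio of observed to expected CpG of 0.370 against a median of 0.579 over all promoters. TNFRSF8 stood at 0.414, PROM1 at 0.679 and MFGE8 at 0.858. The PROM1 start site at 16076118, not shown, stood below SPP1 at 0.2525.

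Between the lines, 6 of the 7 members were higher in NTera2 and PROM1 was higher in TCam-2. The members had been chosen with this difference known, so the values that follow are a description and carry no test. PROM1 goes against the label of an embryonal carcinoma marker in these 2 lines, and PODXL was abundant in both. The CPM ranges of the 16 NTera2 and the 16 TCam-2 libraries did not overlap for any of the 7, which was also so for 52% of all genes tested and, over the 8 vehicle libraries, for 70%.

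The secreted pair differed to different degrees. In the vehicle libraries of NTera2, MFGE8, which tags dying cells for uptake, stood at 781, 933, 802 and 816 CPM in replicates 1 to 4. In those of TCam-2 it stood at 10.61, 10.99, 12.23 and 9.043 CPM. The ratio of the means was 77.7, the highest of the 7, and all NTera2 libraries were above all TCam-2 libraries. SPP1, a bone matrix protein and cytokine, stood at 138.5, 138.2, 134.1 and 131.3 CPM in NTera2 vehicle. It stood at 14.04, 12.73, 11.84 and 15.14 CPM in TCam-2 vehicle. Its ratio was 10.1.

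TNFRSF8 was the lowest member in TCam-2. The CD30 gene stood at 72.8, 76.1, 73.3 and 68.4 CPM in the vehicle libraries of NTera2. In TCam-2 vehicle it stood at 2.42, 1.74, 1.73 and 2.01 CPM, from 31, 19, 22 and 28 reads. The ratio was 36.8 with 100 TCam-2 reads in total behind it, and over all 16 TCam-2 libraries the count ran from 15 to 53. In bulk RNA, fewer cells that make a transcript and less of it per cell cannot be told apart.

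The GPI-anchored pair was also low in TCam-2. CD24, a mucin-like adhesion molecule, stood at 522, 450, 468 and 470 CPM in NTera2 vehicle. In TCam-2 vehicle it stood at 11.23, 10.99, 12.39 and 10.12 CPM, a ratio of 42.7. THY1 (CD90), a marker of stem cells and fibroblasts, stood at 307, 331, 292 and 289 CPM in NTera2 vehicle. It stood at 23.4, 22.7, 16.8 and 22.1 CPM in TCam-2 vehicle, a ratio of 14.3. In NTera2 the fibroblast markers that had reads included COL1A1 at a mean of 27.5 CPM and PDGFRB at 36.9 CPM, while DCN was at 0.00341 CPM.

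PODXL and PROM1 set the line pattern apart from the rest. PODXL stood at 1948, 2048, 1951 and 1844 CPM in NTera2 vehicle. In TCam-2 vehicle it stood at 1005, 915, 910 and 930 CPM, a ratio of 2.07, the smallest of the 6 that were higher in NTera2. PROM1 stood at 97.8, 71.0, 90.4 and 79.4 CPM in NTera2 vehicle and at 554, 369, 485 and 369 CPM in TCam-2 vehicle, 5.24-fold higher in TCam-2. On the log2 scale of TCam-2 over NTera2 the 7 differences were -6.27 (MFGE8), -5.40 (CD24), -5.18 (TNFRSF8), -3.82 (THY1), -3.31 (SPP1), -1.03 (PODXL) and 2.40 (PROM1). Of all genes tested, 2.78% were at or below MFGE8 in this difference, 23.3% at or below PODXL and 92.5% at or below PROM1.

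**Figure D1:**
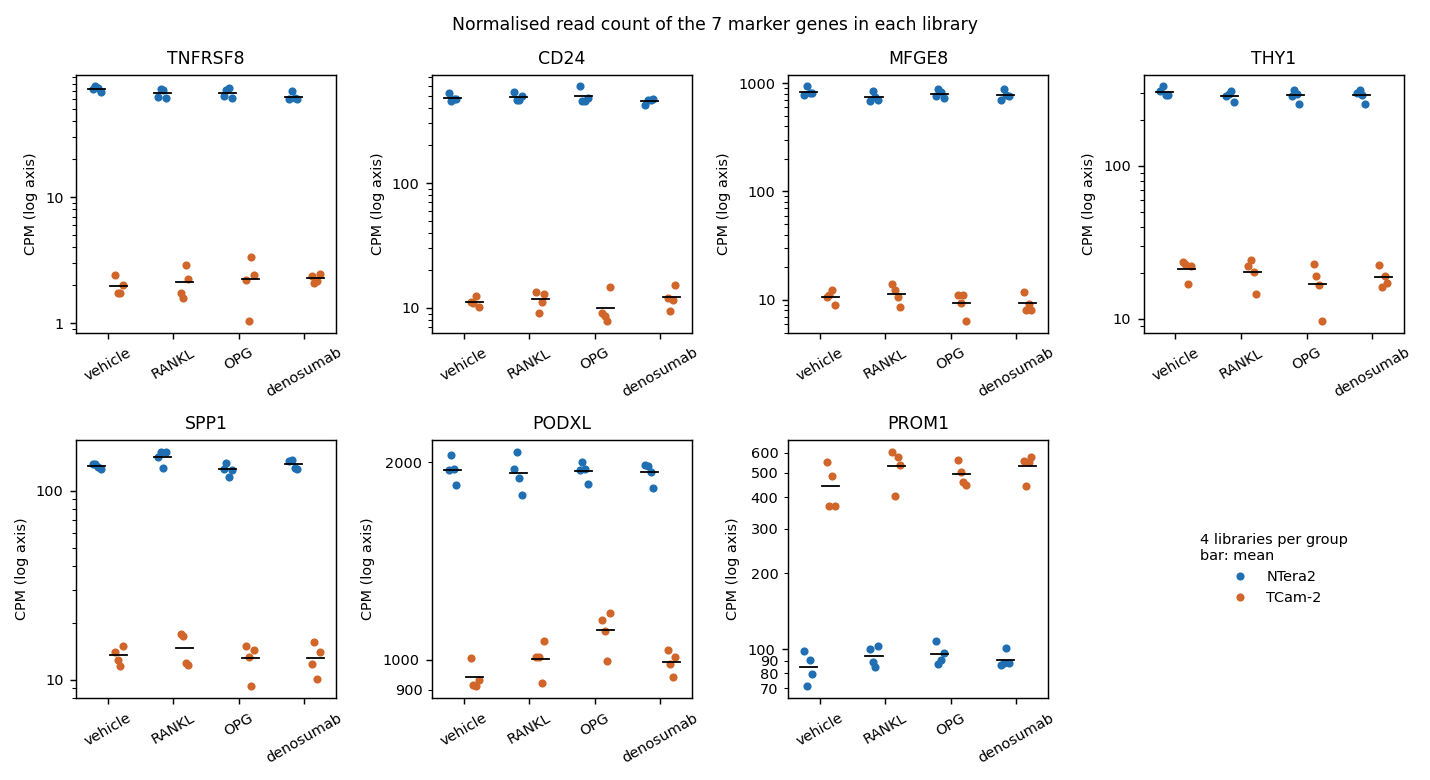
Normalised read count of each of the 7 genes (CPM on a log axis, separate axes) in every library, by treatment, with 4 points and a mean bar per group. NTera2 points lie above TCam-2 points for every gene except PROM1, where TCam-2 is higher, and the ranges of the lines do not overlap under any treatment.

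The line ratios were also taken under each treatment, as a description. The NTera2 over TCam-2 ratio of TNFRSF8 was 36.8 with vehicle, 31.6 with RANKL, 30.0 with OPG and 27.6 with denosumab. For MFGE8 it was 77.7, 65.2, 84.0 and 83.9, and for CD24 it was 42.7, 41.8, 49.5 and 37.6 in the same order. The TCam-2 over NTera2 ratio of PROM1 was 5.24, 5.64, 5.17 and 5.87.

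Levels of different genes were compared per kilobase of the deposited gene length, over the 16 libraries of a line. In NTera2, PODXL was the highest at 281 CPM per kb, followed by CD24 at 155 and MFGE8 at 116, whose ranges overlapped. THY1 followed at 42.4, then SPP1 at 19.2 and TNFRSF8 at 17.7 CPM per kb, which overlapped, and PROM1 was last at 12.2. In TCam-2 PODXL was again first, at 147 CPM per kb, and PROM1 second at 67.1. A gap followed to CD24 at 3.64, THY1 at 2.80, SPP1 at 1.86 and MFGE8 at 1.5 CPM per kb, whose neighbouring ranges overlapped, and TNFRSF8 was last at 0.565. CD24, MFGE8 and PODXL lay at or above 99.0%, 98.4% and 99.5% of tested genes in NTera2, and TNFRSF8 lay at or above 18.2% in TCam-2.

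**Figure D2:**
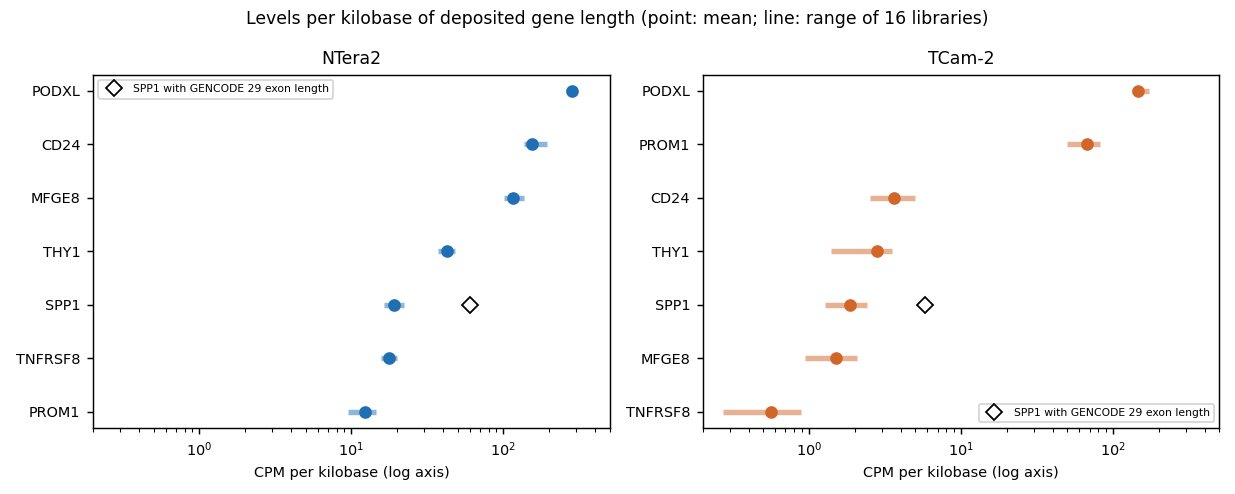
Level per kilobase of deposited length (log axis) for each gene in NTera2 and TCam-2; points are means and lines the range of 16 libraries. PODXL is first in both lines (281 and 147 CPM per kb), PROM1 moves from last to second, and the open diamond shows SPP1 with the GENCODE 29 exon length.

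The deposited length of SPP1 was 7250 bases, and GENCODE 29 gave 2321 bases of exon. With that length SPP1 stood at 59.8 CPM per kb in NTera2, above THY1 at 49.3 with overlapping ranges, and at 5.82 CPM per kb, the third of 7, in TCam-2. Of 58366 genes matched, 67.75% had the same length in both and 89.04% were within 10%, so SPP1 was among the exceptions. THY1 was another, with 6900 bases deposited and 5925 in GENCODE 29, which moved it from 42.4 to 49.3 CPM per kb in NTera2. The order of the other 6 was the same with either length.

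No member passed the adjusted threshold under any treatment with edgeR. Neither did any other gene in the fits reported first, which leave out the pairing of libraries by passage. RANKL, OPG and denosumab against vehicle, OPG and denosumab against RANKL, each in both lines, and the 3 interactions of line with treatment made 13 comparisons. In each, 0 of 7 members and 0% of the genes tested passed an adjusted p of 0.05 (edgeR quasi-likelihood test with Benjamini-Hochberg adjustment, over 17351 genes in NTera2, 16621 in TCam-2 and 19216 across lines). DESeq2 called 0 of 7 members in each as well, and at most 14 genes in one. With the replicate number, which goes with the passage, as a block in edgeR, 0 of 7 members were called in each. The block gave 30 genes with denosumab in NTera2, 2 in TCam-2 and 1 in its interaction with line. The lowest adjusted p of a member was then 0.0801 by edgeR, for MFGE8 with RANKL in NTera2. Values of the members with an unadjusted p under 0.05 in the edgeR fits without the block follow, and the lowest adjusted p among them was 0.381. The shares of all genes below are from the same fits. Of all genes, 1.68% were at that unadjusted level with OPG in NTera2, and 8.92% with RANKL, 6.56% with denosumab and 0.933% with denosumab against RANKL in TCam-2, and 5.22% and 4.78% in the interactions with RANKL and denosumab, where no member was. The CPM ranges of treated and compared libraries overlapped in all 70 member comparisons within a line. Of all genes, the share without overlap in NTera2 was 3.92% with RANKL, 1.97% with OPG and 3.5% with denosumab against vehicle, and 2.73% with OPG and 2.02% with denosumab against RANKL. In TCam-2 it was 2.83%, 2.97%, 3.36%, 2.5% and 1.65% in that order.

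SPP1 in NTera2 was above vehicle with RANKL in 3 of 4 passages but did not pass the threshold. It stood at 151.7, 161.4, 132.9 and 161.1 CPM with RANKL, and vehicle libraries at 138.5, 138.2, 134.1 and 131.3 CPM. RANKL replicates 1, 2 and 4 were above the highest vehicle library, and replicate 3 lay within the vehicle range. The difference was 0.19 on the log2 scale (SE 0.066, 95% interval 0.058 to 0.33, adjusted p = 0.381 by edgeR), and 10.3% of all genes had an unadjusted p under 0.05 in this comparison. OPG libraries stood at 130.9, 140.0, 119.1 and 129.5 CPM, lower than RANKL in 4 of 4 passages, as 17.7% of all genes differed in 1 direction in 4 of 4, by a log2 difference of -0.23 (SE 0.065, edgeR adjusted p = 0.913, with 5.01% of all genes at that unadjusted level). Denosumab libraries stood at 143.1, 146.2, 132.4 and 131.3 CPM, lower than RANKL in 4 of 4 passages (11.7% of all genes in 1 direction) by -0.14 (SE 0.066, edgeR adjusted p = 1, with 4.36% of all genes). These comparisons share the RANKL or the vehicle libraries. In TCam-2 the SPP1 difference under RANKL was 0.08 (95% interval -0.28 to 0.44), and the interaction with line was -0.08 (edgeR adjusted p = 0.999).

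TNFRSF8 in NTera2 had its lowest values with denosumab. They were 60.1, 70.1, 60.9 and 59.8 CPM, against 68.4 to 76.1 CPM with vehicle, and only replicate 2 reached into the vehicle range. The difference was -0.19 (SE 0.075, edgeR adjusted p = 0.563), lower in 4 of 4 passages (19.7% of all genes in 1 direction), with 7.25% of all genes at an unadjusted p under 0.05. TNFRSF8 in NTera2 was also below vehicle with RANKL in 4 of 4 passages (-0.09, 18.4% of all genes in 1 direction). With OPG it was lower in 3 of 4 (-0.09), and these comparisons share the vehicle libraries. Denosumab in TCam-2 gave 0.15 with a 95% interval of -0.48 to 0.79, from 21 to 39 reads per denosumab library.

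PODXL was higher with OPG in TCam-2 in 4 of 4 passages (14.9% of all genes in 1 direction) but did not pass the threshold. It was also above vehicle there in 4 of 4 passages with RANKL (log2 0.05, 21.6% of all genes in 1 direction). The same held with denosumab (0.03, share of all genes not counted), and these comparisons share the vehicle libraries. PODXL stood at 1151, 1107, 994 and 1179 CPM with OPG and at 1005, 915, 910 and 930 CPM with vehicle, and the only overlap was OPG replicate 3 below vehicle replicate 1. The difference was 0.21 (SE 0.064, 95% interval 0.078 to 0.34, edgeR adjusted p = 0.488), with 8.68% of all genes at an unadjusted p under 0.05. Against RANKL it was 0.16 (edgeR adjusted p = 0.887), and 5.14% of all genes were at that level. Without the 2 low-integrity RANKL libraries it was 0.22 (edgeR adjusted p = 0.599). In NTera2, OPG moved PODXL by 0.01 (95% interval -0.083 to 0.10), and the interaction of line with OPG was 0.22 (SE 0.076, edgeR adjusted p = 0.805, with 5.2% of all genes at an unadjusted p under 0.05).

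PROM1 was above vehicle in all 6 treatment means but did not pass the threshold in any. The 6 share 2 vehicle groups, and the share of all genes on 1 side of vehicle in all 6 was not counted. The log2 differences of PROM1 in NTera2 were 0.18 with RANKL, 0.19 with OPG and 0.12 with denosumab, and in TCam-2 0.22, 0.13 and 0.22 in that order. The lowest adjusted p of the 6 was 0.509, by edgeR. In TCam-2 the RANKL libraries stood at 607, 404, 577 and 536 CPM, higher than vehicle in 4 of 4 passages (21.6% of all genes in 1 direction). Leaving out the 2 low-integrity libraries moved this difference to 0.37 (edgeR adjusted p = 0.275).

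CD24, MFGE8 and THY1 differed from vehicle by at most 0.14 on the log2 scale in NTera2. Under the 3 treatments the CD24 differences were 0.07, 0.07 and -0.04, those of MFGE8 -0.14, -0.05 and -0.07, and those of THY1 -0.06, -0.06 and -0.05. MFGE8 stood at 689, 846, 737 and 699 CPM with RANKL and at 781, 933, 802 and 816 CPM with vehicle. It was lower with RANKL in 4 of 4 passages, as 18.4% of all genes differed in 1 direction in 4 of 4, while the ranges overlapped (SE 0.070, edgeR adjusted p = 0.506). With the replicate block MFGE8 differed by -0.14 from vehicle (edgeR adjusted p = 0.0801). With denosumab it was lower than vehicle in 4 of 4 passages (19.7% of all genes in 1 direction) and with OPG in 3 of 4. Against RANKL it was higher in 4 of 4 with OPG (17.7% of all genes in 1 direction) and with denosumab (11.7%). These comparisons share libraries. In TCam-2, where their counts were low, the widest was THY1 with OPG at -0.37 (95% interval -0.76 to 0.023, edgeR adjusted p = 0.586).

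**Figure D3:**
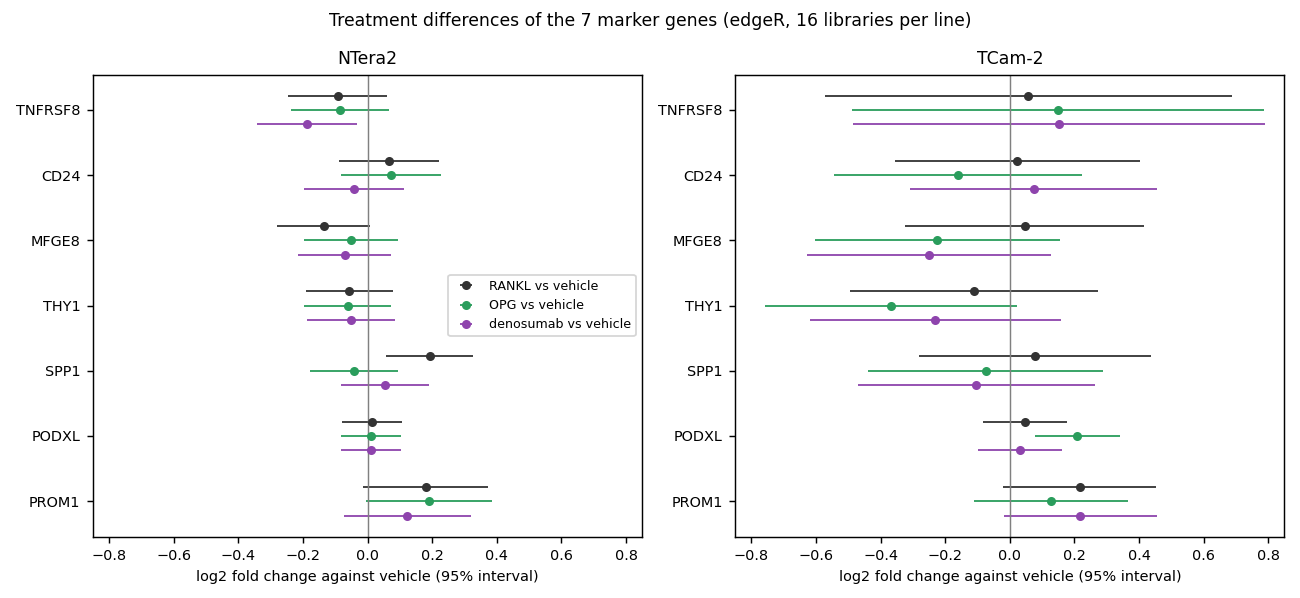
Log2 fold change of the 7 genes against vehicle, with 95% intervals from edgeR, in NTera2 and TCam-2. Intervals are wider in TCam-2 for the genes with low counts, widest for TNFRSF8, and those of SPP1 with RANKL and TNFRSF8 with denosumab in NTera2 and PODXL with OPG in TCam-2 exclude 0 before adjustment.

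The spread between replicates differed between the genes and the lines. PODXL had a within-group SD of 0.066 in log2 CPM in NTera2 and 0.083 in TCam-2, at or above only 3.56% and 5.05% of all genes. The other 6 lay at 12.1% to 36.3% of all genes in NTera2 and at 52.4% to 74.2% in TCam-2, where TNFRSF8 was widest with an SD of 0.40.

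Passage was tested between the first and the last experiment of each line, and no member passed the threshold with edgeR. In NTera2 passage 31 against 27, 0 of 7 members and 0.622% of 17351 genes were called by edgeR, and in TCam-2 passage 122 against 118, 0 of 7 members and 1.35% of 16621 genes. Passage and experiment cannot be told apart. At an unadjusted p under 0.05 stood 2 members in NTera2 (14% of all genes) and 3 in TCam-2 (12.7%). DESeq2 called 1 member in NTera2 (THY1, adjusted p = 0.0371) and 2 in TCam-2 (MFGE8, 0.0243, and THY1, 0.0333), where it called 2.41% and 2.73% of the genes to which it gave an adjusted p.

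The widest passage differences among the members were those of MFGE8 and THY1 in TCam-2. MFGE8 stood between 10.6 and 14.1 CPM in the 4 libraries of passage 118 and between 6.38 and 9.04 CPM in those of passage 122, which do not overlap, as for 6.37% of all genes. The difference was -0.55 (SE 0.15, edgeR adjusted p = 0.0646), lower in 4 of 4 treatments (17.6% of all genes in 1 direction). THY1 stood between 22.3 and 23.4 CPM at passage 118 and between 9.67 and 22.1 CPM at passage 122, with no overlap, a difference of -0.53 (SE 0.15, edgeR adjusted p = 0.0897). PROM1 in TCam-2 differed by -0.24 (edgeR adjusted p = 0.199) with overlapping ranges, and by -0.15 (0.618) without vehicle replicate 4. Without the 2 low-integrity libraries the MFGE8 difference was -0.54 (edgeR adjusted p = 0.203), and that of THY1 -0.47 (0.284).

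In NTera2, PODXL stood between 1948 and 1981 CPM at passage 27 and between 1781 and 1852 CPM at passage 31, with no overlap, as for 5.77% of all genes. The difference was -0.10 (SE 0.032, edgeR adjusted p = 0.127). THY1 differed by -0.16 (SE 0.042, edgeR adjusted p = 0.0762). In MFGE8 passage 29, named after its values were seen, stood at 846 to 933 CPM against 689 to 821 CPM in the other 12 libraries. Of all genes, 2.31% had a passage whose 4 libraries all lay above or all below the other 12.

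**Figure D4:**
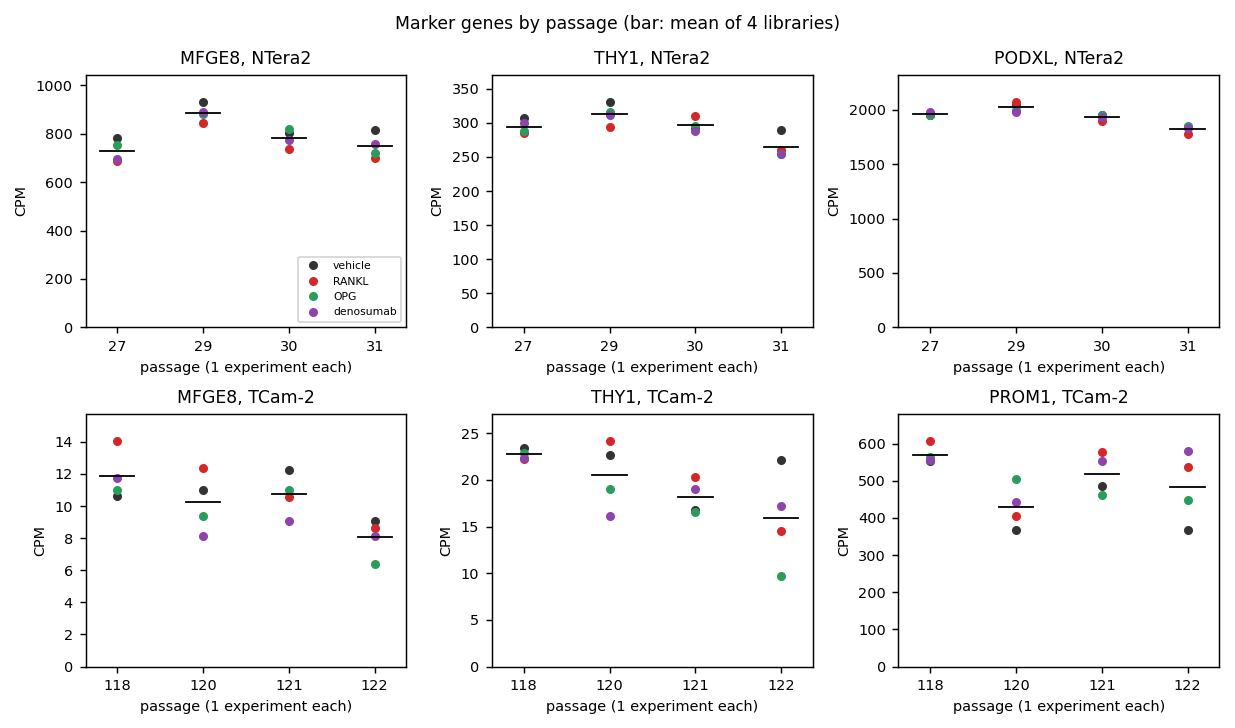
CPM of MFGE8, THY1 and PODXL in NTera2 and of MFGE8, THY1 and PROM1 in TCam-2 by passage, with 1 point per treatment and a bar at the mean of 4 libraries. In TCam-2 MFGE8 and THY1 are lower at passage 122 than at 118 in all 4 treatments, and in NTera2 MFGE8 is highest at passage 29.

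The nearest tested genes on each side of the members were compared between the lines, with a test, since they had not been chosen for it. Of the 14 neighbours, 8 were called lower and 2 higher in TCam-2 and 4 were not called, where 76.2% of 16816 genes were called (edgeR, 8 vehicle libraries). The sign matched that of the member for 11, where 50.3% of all genes had a difference below 0. Beyond 3 on the log2 scale were 2 of the 14, near the 14.4% of all genes. HAPLN3, a hyaluronan link protein gene 3.14 kb from MFGE8, differed by -5.91 (SE 0.26, edgeR adjusted p = 3.24e-12), at 41.3 ± 6.07 CPM in NTera2 and 0.642 ± 0.460 in TCam-2 (SD, n = 4). The gene on the other side of MFGE8, ABHD2, had the opposite sign, 1.18 (edgeR adjusted p = 3.97e-08). CD38, an ectoenzyme gene 113.8 kb from PROM1, differed by 7.61 (SE 0.23, edgeR adjusted p = 2.37e-14), with 0.241 ± 0.0851 CPM in NTera2 and 47.4 ± 8.48 in TCam-2. TAPT1, on the other side of PROM1 and closer at 76.5 kb, had the opposite sign, -0.51 (edgeR adjusted p = 0.0415). TNFRSF1B, the receptor gene beside TNFRSF8, was low in both lines, at 2.67 ± 0.764 CPM in NTera2 and 0.350 ± 0.376 in TCam-2. It differed by -2.88 (edgeR adjusted p = 0.000128), and MIIP on the other side of TNFRSF8 by -0.10 (0.513).

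**Figure D5:**
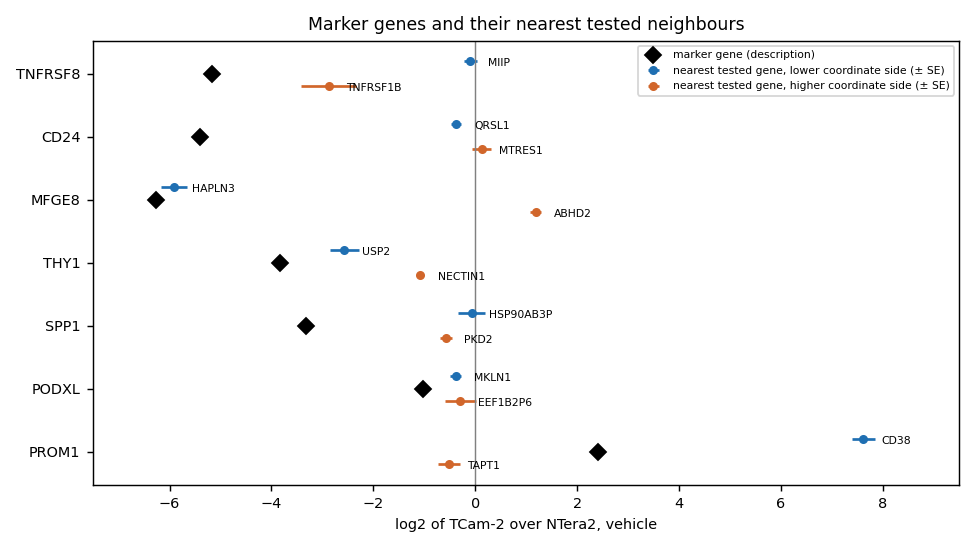
Log2 of TCam-2 over NTera2 in the vehicle libraries for each member (diamonds, a description) and its nearest tested gene on either side (circles with SE). HAPLN3 lies close to MFGE8 at -5.91 and CD38 lies beyond PROM1 at 7.61, and most of the others are nearer 0 than their member.

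Other genes of the same pathways were counted in the line comparison, in 6 lists, and named by their mean level over the vehicle libraries of both lines. Of 75 tested list genes, 28 were called higher and 31 lower in TCam-2. That is 78.67% of the list genes against 76.2% of all genes (37.4% higher and 38.8% lower), near the background. The CD30 signalling list had 3 higher and 5 lower of 10, with a median of -0.56 against -0.01 for all genes. NFKB2, the NF-kB precursor of the noncanonical arm, was at 51.7 ± 6.10 CPM in NTera2 and 943 ± 78.2 in TCam-2 (log2 4.21, edgeR adjusted p = 7.02e-16). TRAF2 differed by -0.44, TRAF3 by -0.90 and NFKBIA by 1.76. The ligand of CD30, TNFSF8, had 3 reads over the 8 libraries and was not tested.

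Integrins and other receptors of the secreted and GPI-anchored members had 5 higher and 3 lower of 9 tested. ITGB5 (log2 1.83), ITGB1 (1.44), ITGA9 (3.83) and ITGAV (2.45) were called higher in TCam-2. The 3 lower ones, named after their values were seen, were ITGA5 (-2.03), CD44, at 8.80 CPM in NTera2 and 3 reads in all in TCam-2, and ITGA4, at 7.46 CPM and 3 reads. In the PODXL and PROM1 list 2 were higher and 4 lower of 8. EZR, which links PODXL to the actin cortex, was higher (1.81), and MSN (-1.72), RDX (-0.72) and PODXL2 (-1.65) were lower. PROM2, the paralogue of PROM1, was named after its value was seen: 1.18 ± 0.184 CPM in NTera2 and 90.5 ± 7.07 in TCam-2 (log2 6.28, edgeR adjusted p = 3.04e-16).

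GPI anchor assembly, which CD24 and THY1 need, had 9 higher and 10 lower of 27, with a median of 0.03. GPAA1 (1.89), PIGS (2.27), PIGO (1.72) and PIGT (1.16) were the called genes with the highest mean over both lines, and were higher in TCam-2. By the NTera2 level alone, an order chosen after the values were seen, the first 4 were PIGG (-0.85), PIGT, PGAP2 (-0.54) and DPM2 (-0.72). Among 20 other pluripotent surface markers, 9 were higher and 9 lower, and CD9 (2.51), F11R (1.62), ALPL (1.35) and TFRC (0.63) were the called ones with the highest mean over both lines. By the NTera2 level alone the first 4 were TFRC, CD276 (-1.35), GPC4 (-0.23) and ALPL, and the lower ones also included GPC3 (-3.58) and B3GALT5 (-5.63). Of the SPP1 and MFGE8 relatives, EDIL3 alone could be tested and was not called (0.31, edgeR adjusted p = 0.183). Under the treatments 0 list genes were called. Between passages 1 of 75 list genes was called in NTera2 (1.33%, against 0.622% of all genes) and 3 of 73 in TCam-2 (4.11%, against 1.35%). TDGF1 fell in NTera2 (-0.31, edgeR adjusted p = 0.000613), and in TCam-2 EZR (0.27, adjusted p = 0.00252) and CD9 (0.17, 0.0463) rose and GPC3 fell (-0.60, 0.00636), also by edgeR.

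Genes whose levels moved most like each member over the 16 NTera2 libraries were found among 9641 genes, as a description, since the libraries share passages and depth. The highest Pearson r was 0.96 for PODXL with RCC2, 0.95 for MFGE8 with CAPN1, 0.92 for CD24 with SPCS3, 0.91 for TNFRSF8 with RPAP1, 0.90 for PROM1 with ERCC6L, 0.89 for THY1 with OSBPL10 and 0.80 for SPP1 with PRR13. In TCam-2 the same pairs had r of -0.11, 0.44, 0.50, -0.14, 0.74, 0.40 and -0.24. Among the members, MFGE8 and THY1, a pair named after the values were seen, had r of 0.64 in NTera2 and 0.74 in TCam-2. Other member pairs had a higher r in NTera2. They were THY1 with PODXL (0.75 in NTera2 and -0.39 in TCam-2) and TNFRSF8 with MFGE8 (0.75 and -0.18). TNFRSF8 with THY1 (0.72 and -0.24) and CD24 with PROM1 (0.67 and 0.36) were the rest.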

How the data were processed

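Polyadenylated RNA of 32 libraries was sequenced as stranded 52-base read pairs, per the labels' protocols. The deposited values are raw read counts per gene, made by the authors with bcl2fastq 2.20.0, STAR 2.7.9a on GRCh38/hg38 and featureCounts 1.6.2, per the submitters' processing notes. The annotation release and strand setting are not given in the sources used here, so antisense partners are uncertain. The deposited table also holds gene coordinates and a length, which is another kind of value. All 32 columns were matched to a sample by title.

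Counts were tested with edgeR 4.0.16 in R 4.3.3 (filterByExpr, TMM, robust quasi-likelihood F test, Benjamini-Hochberg over all genes, threshold 0.05), with DESeq2 1.42.0 as an alternative. One fit took the 16 libraries of each line, another all 32 for interactions and the last the 8 vehicle libraries for the lines, which made 15 tests of the members. CPM used TMM over all 32 libraries, so ratios of CPM can differ slightly from fitted fold changes. The passage fit had treatment as a covariate. The scripts were checked on simulated counts. Intervals have a level of 95%. The members, lists and tests were chosen with earlier results of these data known. List genes were named by level: of each list the 4 called genes with the highest mean CPM, and for passage those called. Replicate numbers share a passage per the labels, so they pair the libraries, although the correlation of deviations of same-numbered libraries had a median of only 0.065 in NTera2 and 0.055 in TCam-2. The marker lists cover embryonal carcinoma, seminoma, fibroblast, lymphoid and myeloid, endothelial and neural cells. Alternatives were the scaling, the filter on low counts, DESeq2, the replicate block and leaving out each library.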

Additional observations from a re-analysis of the deposited data

Results flagged for a closer look

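Of 56 groups of 4 libraries (7 genes in 8 groups), 2 held a library far from the other 3, and chance flags about 1 group in 20. TNFRSF8 stood at 70.14 CPM in NTera2 denosumab replicate 2, where the other 3 libraries were between 59.78 and 60.92 CPM. PROM1 stood at 101.3 CPM in NTera2 denosumab replicate 3, where the other 3 were between 86.04 and 87.86 CPM.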

How the results depend on the processing

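No member was called in any of the 13 treatment and interaction comparisons under the alternative scalings, DESeq2, no filter, the replicate block or the omission of any library or of the 2 low-integrity TCam-2 libraries. The calls of members between passages depend on the processing. In NTera2, 0 members were called as reported, 1 with DESeq2 (THY1, adjusted p = 0.0371) and 2 without a filter on low counts (THY1, 0.0478, and PODXL, 0.0396), and leaving out single replicates gave 0 to 1 (CD24 at -0.19, adjusted p = 0.0263, without denosumab replicate 1). Over all genes, the fit without a filter called 281 and that without denosumab replicate 1 called 142, with shares not counted. In TCam-2, 0 members were called as reported, 2 with DESeq2 (MFGE8, 0.0243, and THY1, 0.0333) and 2 without a filter (THY1, 0.00763, and PROM1, 0.00323), and single replicates gave 0 to 1 (THY1 at -0.71, adjusted p = 0.0107, without vehicle replicate 4). At the other end, THY1 was at -0.37 (edgeR adjusted p = 0.352) without OPG replicate 4. Over all genes, the fit without a filter called 336 and that without vehicle replicate 4 called 210, with shares not counted. The cause of this dependence on the processing was not tested. The log2 ratio of PODXL in NTera2 over TCam-2 was 1.195 without a TMM factor. This is the same direction as the -1.03 given above for TCam-2 over NTera2. For members in comparisons with an unadjusted p of 0.05 or more, a selection made after the values were seen, 109 of 1298 alternative values had the other sign, the largest at 0.147, and 0 of them were called.

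Over all genes, the 108 passage calls in NTera2 became 288 with DESeq2, 281 without a filter and 48 to 142 with a replicate left out, and the 224 in TCam-2 became 410, 336 and 97 to 267, and 120 without the 2 low-integrity libraries, an alternative added after seeing the data like the GENCODE 29 length. Treatment calls, 0 as reported, reached 237 without a filter, 14 with DESeq2, 30 with the replicate block and 29 without vehicle replicate 3 for denosumab in NTera2, and 176 for RANKL in NTera2 and 51, 54 and 28 for RANKL, OPG and denosumab in TCam-2 without a filter. DESeq2 gave 7 for OPG in TCam-2 and the block 2 for denosumab there. With passage as a replicate block, the lowest adjusted p of a member was that of MFGE8 with RANKL in NTera2 (-0.14, edgeR adjusted p = 0.0801), SPP1 in that comparison stood at 0.19 (0.0930) and PODXL with OPG in TCam-2 at 0.21 (0.223), and the block changed no call of a member.

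The 15 to 53 reads of TNFRSF8 in a TCam-2 library limit the precision there, where its intervals against vehicle reach from -0.57 to 0.79.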
